A study of Danio rerio with 18 samples.

Results

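The embryos described here were zebrafish mock-injected embryos, compared between 24 hours postfertilization (hpf) and the 128-cell stage. Their members are 6 of the 18 libraries of the series: 3 libraries named Mock 24 hpf and 3 named Mock 128-cell, chosen by their labels alone. Every embryo came from Tg(ddx4:ddx4-EGFP) females on the ABTL background crossed with casper males, with 3 mating pairs pooled at collection. The transgene joins EGFP to ddx4 (vasa) under the ddx4 promoter and is handed down by the mother, so that all 6 libraries carry it. According to the paper, homozygous and heterozygous fish were both used, and EGFP expression differed strongly between groups. Mock embryos received 1 nl of diluted Tris storage buffer without any protein in the yolk at the 1-cell stage. The injections were repeated 3 times independently, and each library is a pool of 25 whole embryos, so that differences between single embryos were not measured. The remaining libraries were Mock 5 hpf (3 libraries) and, at the same stages, embryos given 0.7 ng of the D16A Csm complex with a guide against EGFP, and these serve below only for the course over time and for a comparison with libraries outside this contrast.

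At the 128-cell stage the zebrafish embryo divides rapidly and synchronously and lives on transcripts that the mother laid down in the egg. The embryo's own genome becomes broadly active at the midblastula transition, soon after that stage. Maternal transcripts are then cleared by pathways that shorten their poly(A) tails, among them the microRNA miR-430 in zebrafish. By 24 hpf the embryo has somites, a beating heart, a brain with first neurons, blood and a skin. RNA was selected by its poly(A) tail before library construction, and a transcript with a short tail is captured less well, so the amount of a transcript and the length of its tail cannot be told apart in these values.

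The Mock 24 hpf libraries held between 11763787 and 15277759 reads assigned to genes, and the Mock 128-cell libraries between 13736898 and 16704023. Between 21817 and 24248 of 32521 listed identifiers had at least 1 read. Levels are given as counts per 1000000 assigned reads (CPM) on library sizes scaled by TMM, a method that assumes most genes to be unchanged. Replicates of 1 stage correlated at r between 0.990 and 0.992 on log2(CPM + 1) across the tested genes, and libraries of different stages at r between 0.502 and 0.524. These are correlations across genes, which are not independent replicates. The scale matters here, because without TMM the log2 fold changes were lower by a median of 0.90. Symbols in capitals are those of the symbol table, where a human-style symbol can stand on several zebrafish genes, and such genes are given with their identifier.

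After the filter on low counts, 18265 genes were tested, and most of them differed between the stages. At an adjusted p under 0.1 (edgeR's quasi-likelihood test with the replicate number as a block, Benjamini-Hochberg adjustment), 8249 genes (45.2%) were higher and 8059 (44.1%) lower at 24 hpf, while 1957 (10.7%) were not called. Only genes past this test are said below to have risen or fallen. On library totals without TMM the same fit called 6380 genes higher and 10324 lower, so that the share of calls that were higher was 50.6% with TMM and 38.2% without. Tested against a 2-fold change, 6557 genes (35.9%) were higher and 5604 (30.7%) lower by more than that. These percentages are the background for each count of genes below, and a list in which about as many members rose and fell does not stand out from them.

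Transcripts were then sorted into 3 descriptive classes without a test. A transcript counted as lost where its lowest 128-cell library had 5 CPM or more and at least 20 times its highest 24 hpf library, as new where the same held the other way round, and as kept where all 6 libraries had 5 CPM or more and the fitted change was within 2-fold. The name kept refers to the level alone, and maternal RNA that persisted cannot be told apart here from RNA made anew by the embryo. There were 459 lost genes (2.51% of those tested), 1948 new genes (10.7%) and 3768 kept genes (20.6%). Just inside and just outside the ratio limit lay 20.07 and 19.99 times for new genes, and 20.03 and 19.94 times for lost genes, so the limit cuts through a continuous range. Another 469 genes were higher and 363 lower by 10 to 20 times. The median level of the lost genes was 0.411 CPM at 24 hpf and 39.9 CPM at the 128-cell stage, that of the new genes 26.5 and 0.161 CPM, and that of the kept genes 40.2 and 45.9 CPM. Complete absence was rare: 13 lost genes had no read in any 24 hpf library and 51 new genes had none in any 128-cell library.

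**Figure D1:**
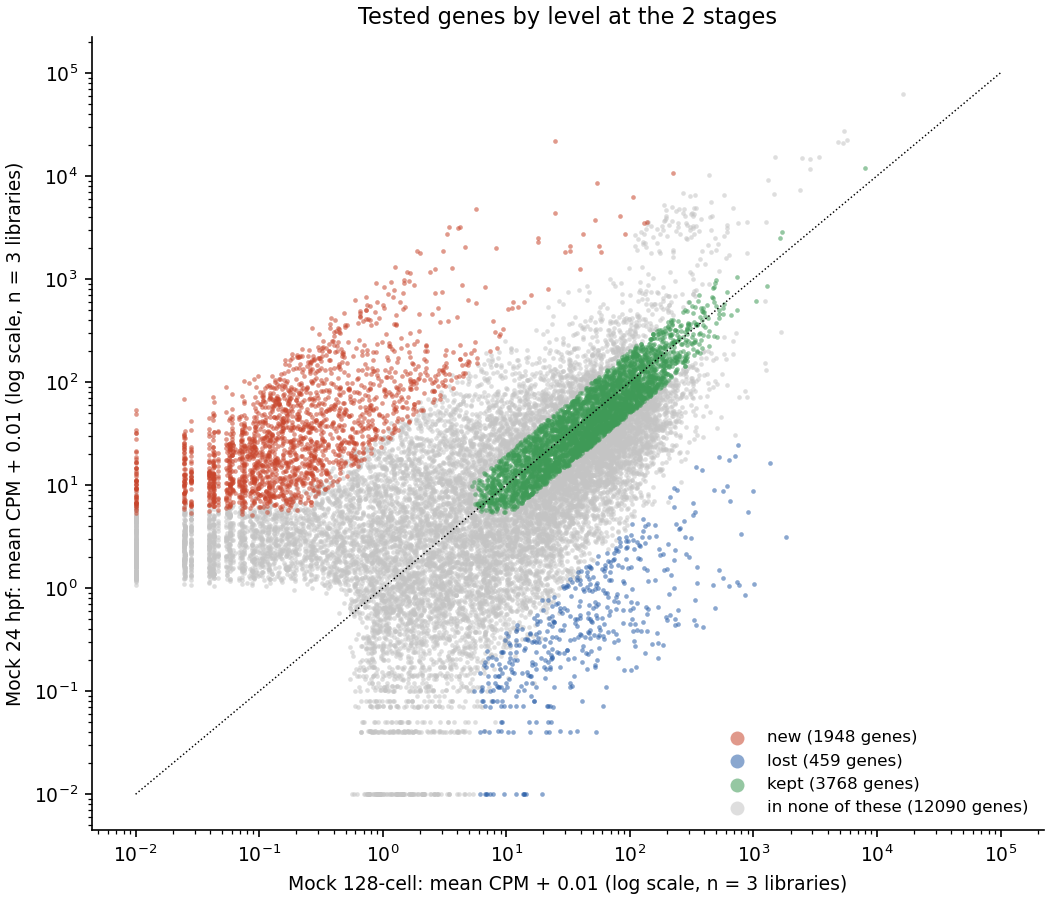
Each point is 1 of 18265 tested genes, with its mean level at the 128-cell stage on the horizontal axis and at 24 hpf on the vertical axis, both as CPM + 0.01 on log scales (n = 3 libraries each). New genes lie far above the dotted line of equal level, lost genes below it and kept genes along it, and 12090 genes belong to none of these classes.

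The maternal store and the 24 hpf transcriptome overlapped widely in their genes. At 5 CPM or more in every library of a stage there were 11075 genes at 24 hpf and 9932 at the 128-cell stage, and 7726 genes met this at both, which is 69.8% of the 24 hpf genes and 77.8% of the 128-cell genes. Of these shared genes, 1423 were fitted over 2-fold higher and 2535 over 2-fold lower at 24 hpf. Lost genes were 4.62% of the 128-cell genes and new genes 17.6% of the 24 hpf genes.

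In terms of reads, the change was one of concentration. In the 3 Mock 24 hpf libraries, 118, 161 and 133 genes together held 50% of the assigned reads, against 1222, 1308 and 1344 genes in the 3 Mock 128-cell libraries. The 100 highest genes took 47.3%, 42.7% and 45.3% of the reads at 24 hpf and 18.2%, 17.2% and 16.1% at the 128-cell stage. New genes held 17.4%, 18.8% and 17.8% of the reads at 24 hpf and 0.373%, 0.278% and 0.268% at the 128-cell stage. Lost genes went the other way, with 0.0376%, 0.0399% and 0.0436% at 24 hpf and 6.33%, 6.12% and 6.15% at the 128-cell stage. Both directions are fixed by the class rules, which used these same libraries, so only the sizes of the shares are a description. Kept genes took 18.6%, 19.9% and 19.9% at 24 hpf and 36.2%, 36.2% and 37.3% at the 128-cell stage. The share of reads held by kept genes was thus smaller at 24 hpf. Their median level on the TMM scale, given above, was close at both stages, as the rule for this class requires.

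**Figure D2:**
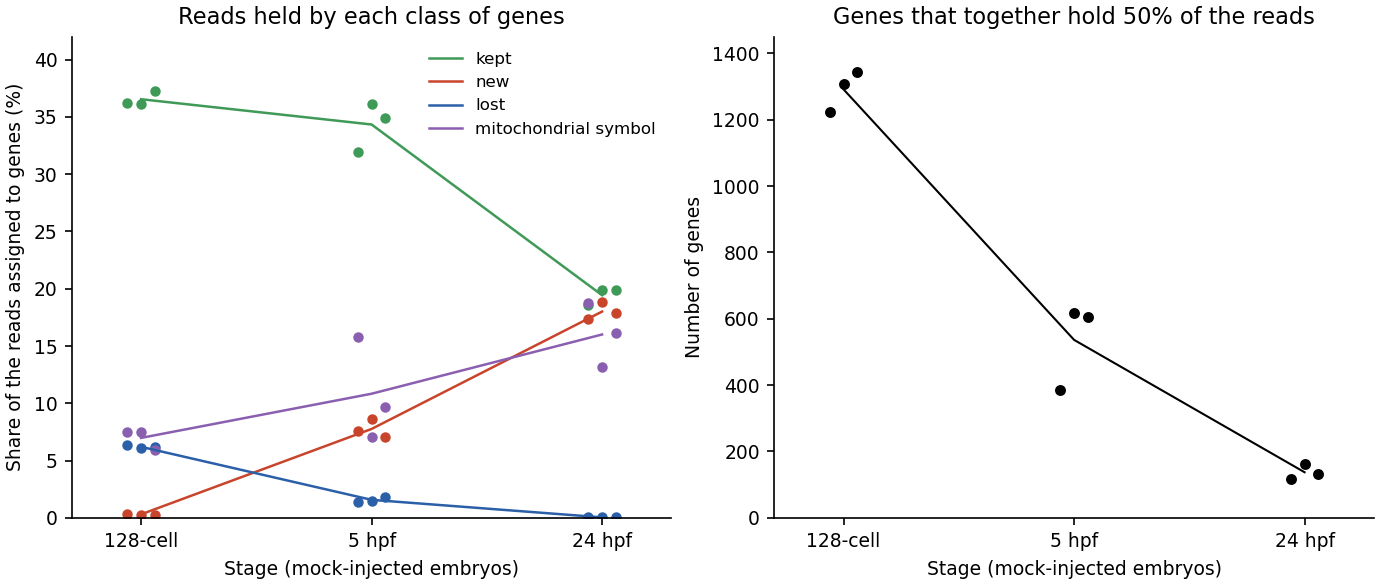
Left, the share of reads assigned to genes (%) held by kept, new and lost genes and by genes with a mitochondrial symbol, for 3 stages in order of age, and right, the number of genes that together hold 50% of the reads (points are mock libraries, lines join the means of 3). New genes took 17.4% to 18.8% of the reads at 24 hpf, and the number of genes holding 50% of the reads was 118 to 161 there against 1222 to 1344 at the 128-cell stage.

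The 8 most abundant lost transcripts included genes of chromatin, the germ plasm, the cell surface and enzymes. The maternal linker histone h1m, which packages chromatin in eggs and cleaving embryos in place of the somatic forms, had 1.91, 2.16 and 5.41 CPM at 24 hpf and 2288, 1468 and 1727 CPM at the 128-cell stage (log2 fold change -9.15, SE 0.34). Bucky ball (buc), which organises the Balbiani body of the oocyte and the germ plasm, had 0.238, 0.657 and 2.34 CPM at 24 hpf and 1044, 956.2 and 1013 CPM at the 128-cell stage. ACP5, an acid phosphatase gene, changed least among the 8, with 15.6, 19.5 and 13.4 CPM at 24 hpf and 1444, 1240 and 1400 CPM at the 128-cell stage, which is 84.4 times lower at 24 hpf. The remaining 5 of the 8 highest lost genes were the claudins cldnd and cldng, members of the family that builds tight junctions, with log2 fold changes of -9.43 and -7.88, the histone H2A family gene h2af1al (-9.87), ppp1r3c2b, a regulatory subunit of protein phosphatase 1 (-7.33), and mid1ip1l (-6.83), which in zebrafish eggs is needed for actin organisation and for gathering the germ plasm.

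Of the 42 tested members of a list of maternal and oocyte genes, 39 fell, 37 of them by more than 2-fold, and 3 rose, with a median log2 fold change of -6.39 against 0.01 over all tested genes. The list was drawn up from known maternal genes with earlier results in view, and 28 of its members were lost. The cell cycle kinase wee2, the oocyte form of Wee1, had 0.357, 0.376 and 0.541 CPM at 24 hpf and 366.4, 310.7 and 349.9 CPM at the 128-cell stage, a log2 fold change of -9.60 (SE 0.20). The deadenylase adaptor btg4, which in mice drives clearance of maternal transcripts, stood at 0.357, 0.282 and 0.811 CPM at 24 hpf and 358.2, 336.6 and 288.3 CPM at the 128-cell stage. For cth1, a zinc finger gene, the levels were 0.357, 1.03 and 1.98 CPM at 24 hpf and 678.0, 765.7 and 748.2 CPM at the 128-cell stage. Oocyte nucleoplasmin npm2a came closest to absence, with 0, 0.0939 and 0 CPM at 24 hpf, which is 1 read over the 3 libraries, and 28.9, 26.5 and 26.4 CPM at the 128-cell stage. The 3 members that rose were ybx1, celf1 and cpeb1a. The messenger RNA-binding protein gene ybx1, a translational repressor of stored maternal RNAs, had 2781, 3194 and 2894 CPM at 24 hpf and 526.4, 444.3 and 395.9 CPM at the 128-cell stage. The cytoplasmic polyadenylation factor cpeb1a was low throughout, at a mean of 1.31 CPM at 24 hpf and 0.271 CPM at the 128-cell stage, while its relative CPEB1 fell by 4.78 on the log2 scale.

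Germ plasm genes fell almost without exception: 19 of 20 tested members fell, all 19 by more than 2-fold, 16 were lost, and the median log2 fold change was -6.04. Germ plasm is the cytoplasm that marks the future germ cells, which are a few cells among all cells of a 24 hpf embryo, and in pools of whole embryos fewer cells of a type and less RNA per cell cannot be told apart. The RNA helicase gene ddx4 (vasa), the best-known marker of germ cells, had 8.81, 9.11 and 9.19 CPM at 24 hpf and 467.2, 569.9 and 414.7 CPM at the 128-cell stage (log2 fold change -5.73, SE 0.15). Its level at 24 hpf was alike in the 3 libraries and the highest of the lost germ plasm genes, where the others had means between 0.263 and 3.16 CPM. EGFP, the tag of the transgene, had 1.43, 1.41 and 1.17 CPM at 24 hpf and 176.7, 300.8 and 170.8 CPM at the 128-cell stage (log2 fold change -7.33, SE 0.18). Reads from the ddx4 portion of the fusion can be counted as ddx4, so the endogenous and transgenic ddx4 cannot be told apart. The translational regulator dazl fell by 8.65, the Tudor domain gene TDRD6 by 7.02 and nanos3 by 4.95 on the log2 scale. The only member that rose was celf1, an RNA-binding protein gene, with 176.8, 182.9 and 175.5 CPM at 24 hpf and 105.3, 112.2 and 119.3 CPM at the 128-cell stage, and on library totals its sign turned (0.67 with TMM, -0.23 without).

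Among 14 tested genes that activate the zygotic genome or take part in its first transcription, 10 fell and 4 rose, 4 were lost, and the median log2 fold change was -2.46. The 3 factors known to open the genome in zebrafish, Nanog, Pou5f3 and Sox19b, did not behave alike. The homeobox gene nanog had 0.714, 1.03 and 1.44 CPM at 24 hpf and 423.3, 443.6 and 540.9 CPM at the 128-cell stage. The POU factor gene pou5f3 had 2.38, 3.29 and 3.61 CPM at 24 hpf and 251.3, 276.8 and 308.5 CPM at the 128-cell stage, and 1611 CPM on average at 5 hpf, well above both stages. The SoxB1 gene sox19b fell by 2.62 on the log2 scale and kept a mean of 52.3 CPM at 24 hpf, against 321.8 CPM at the 128-cell stage, so it belongs to no class. The oocyte TATA-binding protein gene tbpl2 and the Nodal pathway factor gene foxh1 were the other two lost members, with log2 fold changes of -6.73 and -6.59. The 4 that rose were mych (2.98), taf3 (1.11) and both EP300 genes, which code for acetyltransferases. The EP300 genes had log2 fold changes of 1.67 for ENSDARG00000061108 and 0.28 for ENSDARG00000100666. On library totals taf3 was at 0.21 and the second EP300 gene at -0.62, and 2 members of the list rose and 11 fell.

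Several proteins have an oocyte or maternal form and a somatic form from a second gene, and 15 such pairs are described here. The maternal form fell by more than 2-fold in 14, and 12 maternal forms were lost. In the remaining pair igf2bp3 was called only narrowly (log2 fold change -0.20, adjusted p = 0.0908 by edgeR), and the call did not hold with DESeq2's size factors (-0.07) or when any 1 replicate was left out. Over all alternatives its adjusted p by edgeR or DESeq2 lay between 6.05e-08, on library totals, and 0.655. The somatic form rose in 8 pairs, of which kpna2 and npm1a turned to -0.01 and -0.55 on library totals, fell in 6, and lmnb1 was not called. The pairs differed in whether the somatic gene was part of the maternal store. Among the somatic forms only mcm3 and sox19a were new, and both were near absent there. The replicative helicase subunit gene mcm3 had 197.4, 195.0 and 195.4 CPM at 24 hpf and 0.650, 0.135 and 0.612 CPM at the 128-cell stage, while its maternal partner mcm3l fell by 5.60 on the log2 scale. The SoxB1 genes sox19a and sox19b exchanged places likewise, with a log2 fold change of 9.15 for sox19a and with sox19b making up 11.6%, 11.8% and 10.7% of the pair at 24 hpf and 99.6%, 99.9% and 99.8% at the 128-cell stage.

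In the other pairs the somatic gene was already in the maternal store, at means from 9.07 CPM for EIF4E upward. The poly(A)-binding protein gene pabpc1a had 1510, 1694 and 1610 CPM at 24 hpf and 601.8, 599.5 and 604.4 CPM at the 128-cell stage, and its oocyte partner pabpc1l, with 0, 0.282 and 0.541 CPM at 24 hpf and 166.6, 140.0 and 143.9 CPM at the 128-cell stage, made up 18.9% to 21.7% of the pair at the earlier stage. The nuclear lamina gene lmnb1 had 295.9, 304.5 and 312.6 CPM at 24 hpf and 246.0, 268.9 and 325.0 CPM at the 128-cell stage, ranges that overlap (log2 fold change 0.13, adjusted p = 0.302 by edgeR), while lmnl3 was lost. On library totals lmnb1 was called lower, at -0.77 (adjusted p = 1.4e-05 by edgeR). In 6 pairs both genes fell, as for the general transcription factor genes tbp and tbpl2, with log2 fold changes of -2.70 and -6.73. The cyclin A gene ccna2 fell by 1.99 and its oocyte partner ccna1 by 8.50. The large subunit of TFIIA was the one pair in which the maternal share of the reads overlapped between the stages, at 2.08% to 5.29% at 24 hpf and 3.14% to 4.53% at the 128-cell stage. Of the IGF2 messenger RNA-binding protein genes, igf2bp3 was kept and igf2bp1 rose by 3.84.

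**Figure D3:**
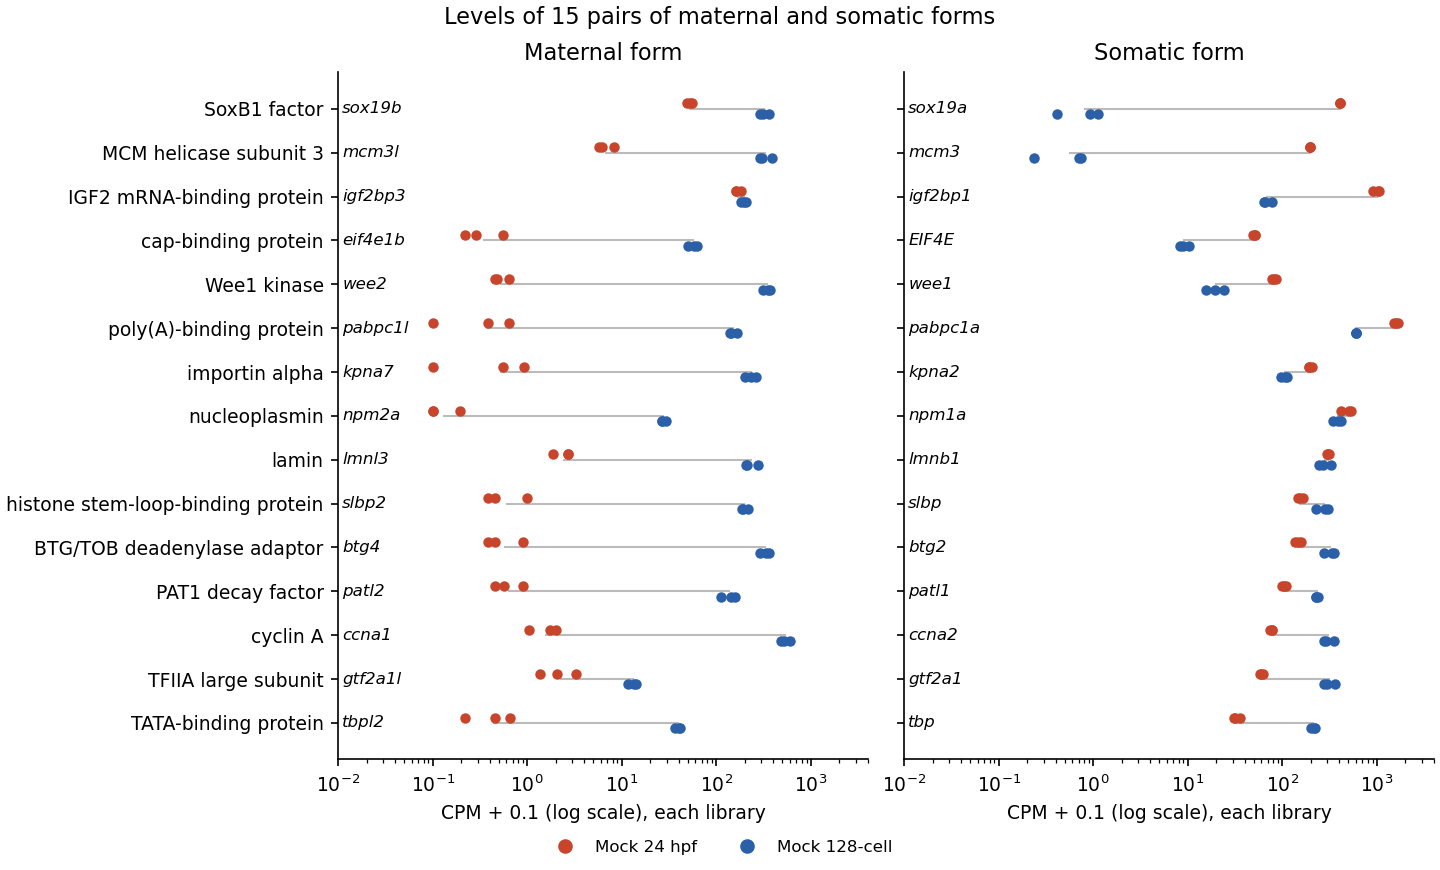
Levels of 15 maternal forms (left) and their somatic forms (right) in each library, as CPM + 0.1 on a log scale, at Mock 24 hpf (red) and Mock 128-cell (blue), with grey lines joining the stage means. The red points of all maternal forms except igf2bp3, sox19b and gtf2a1l lie far to the left of the blue ones, while the somatic forms range from mcm3, at 195.0 to 197.4 CPM at 24 hpf and under 1 CPM at the 128-cell stage, to tbp, which fell.

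Cell cycle genes split. Of 50 tested genes of the cleavage cell cycle, which runs without gap phases, 28 fell, 16 rose and 6 were not called (38 and 10 fell and rose on library totals), 18 were kept, and the median log2 fold change was -0.56. The replication licensing inhibitor gene gmnn, which codes for geminin, had 70.4, 72.8 and 72.8 CPM at 24 hpf and 982.4, 860.5 and 814.7 CPM at the 128-cell stage. The lost members were ccna1, wee2, birc5b and one of both genes with the symbol mcm6 (ENSDARG00000033231), whose other copy (ENSDARG00000057683) was new with 198.5, 219.6 and 207.9 CPM at 24 hpf and 0.976, 1.58 and 1.01 CPM at the 128-cell stage. The G1/S cyclin gene ccne2 was new as well (log2 fold change 5.45), as were mcm3 and one cks2 gene (ENSDARG00000071410). The ribonucleotide reductase subunit gene RRM2 (ENSDARG00000020711) had 560.1, 398.0 and 544.7 CPM at 24 hpf and 561.4, 402.1 and 611.3 CPM at the 128-cell stage, overlapping ranges with a log2 fold change of -0.06. On library totals this RRM2 gene was called lower, at -0.96 (adjusted p = 3.39e-06 by edgeR). Of 21 tested genes of the somatic cycle, with cyclin D and inhibitors of cyclin-dependent kinases, 12 rose, 8 fell and e2f1 was not called, with a median of 2.16. Cyclin D1 (ccnd1), which drives the gap phase before replication, had 828.3, 853.7 and 717.3 CPM at 24 hpf and 22.0, 18.4 and 24.4 CPM at the 128-cell stage. The kinase inhibitor genes cdkn1ca, cdkn1cb and CDKN1B (ENSDARG00000029018) were new too. A further cyclin D gene, CCND2 (ENSDARG00000051748), fell, with a log2 fold change of -2.06.

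More genes of messenger RNA decay fell than rose. Of 70 tested, 43 fell, 17 rose and 10 were not called (55 and 8 fell and rose on library totals), 32 were kept, and the median log2 fold change was -0.59. The poly(A)-specific ribonuclease gene parn had 135.5, 108.4 and 113.1 CPM at 24 hpf and 429.4, 401.4 and 432.2 CPM at the 128-cell stage. The decay factor gene patl2 was lost along with btg4 and pabpc1l, and its somatic relative patl1 fell by 1.16 on the log2 scale. The new members were pabpc4 and pabpc1b, further poly(A)-binding proteins with log2 fold changes of 9.69 and 4.68, ZFP36L1 (ENSDARG00000021443) and upf3a. The KH domain gene khsrp and the microRNA processing gene dgcr8 were kept, with log2 fold changes of 0.42 and -0.63, and that of khsrp was -0.48 on library totals.

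Of the 8 most abundant new transcripts, 7 are described here, and they include genes of the skin, the ribosome, muscle and the actin skeleton. The type II keratin gene krt4, an epidermal keratin, had 20460, 23050 and 21740 CPM at 24 hpf and 43.2, 2.84 and 28.2 CPM at the 128-cell stage, where replicate 2 was lowest. The nuclear noncoding RNA malat1 had 10710, 7728 and 6914 CPM at 24 hpf and 62.7, 50.7 and 49.1 CPM at the 128-cell stage. The calcium pump gene atp2a1 of fast muscle had 4657, 4804 and 4969 CPM at 24 hpf and 9.49, 0.946 and 6.64 CPM at the 128-cell stage. The distance between the stages is what this class requires. Thymosin beta 4 (tmsb4x), which binds actin monomers, rose by 7.49 on the log2 scale. The others described were ribosomal proteins of the large subunit, with rplp1 at a log2 fold change of 5.97, rplp0 at 5.62 and RPL5 (ENSDARG00000020197) also at 5.62.

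Ribosomal protein genes rose almost without exception. Of 80 tested genes, 79 rose, all of them by more than 2-fold, none fell, and the median log2 fold change was 4.05. On library totals 79 rose, 1 fell and the median was 3.16. Together the ribosomal protein genes held 19.2%, 19.1% and 18.9% of the reads at 24 hpf and 2.79%, 2.13% and 1.85% at the 128-cell stage. Their share in the 5 hpf libraries was 5.94%, 2.81% and 4.35%. Of the members, rplp0, the stalk protein of the large subunit, had 10820, 10830 and 10260 CPM at 24 hpf and 297.8, 211.3 and 162.3 CPM at the 128-cell stage. The large subunit gene rpl4 had 10790, 9883 and 9919 CPM at 24 hpf and 520.8, 376.8 and 409.3 CPM at the 128-cell stage. In rps2 of the small subunit the levels were 6713, 6712 and 6128 CPM at 24 hpf and 406.6, 325.1 and 274.3 CPM at the 128-cell stage. For all 3 genes the spread between replicates was small beside the distance between the stages. Ribosomal protein transcripts begin with a terminal oligopyrimidine tract in vertebrates, through which their translation is controlled together.

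The other parts of the translation apparatus rose less uniformly. Of 85 tested genes of translation factors, with regulators that share their symbols, 55 rose, 22 fell and 8 were not called (41 and 38 rose and fell on library totals), and the median was 0.97, or 0.07 on library totals. The elongation factors led: eef1a1l1, which brings aminoacyl-tRNA to the ribosome, had 14280, 15470 and 15880 CPM at 24 hpf and 1565, 1456 and 1490 CPM at the 128-cell stage. Its level at 5 hpf, 13640 CPM on average, was already close to that at 24 hpf. The translocation factor gene eef2b rose by 2.80 on the log2 scale and eef1g by 3.09. The initiation factor kinase gene eif2ak1 fell by 2.59, and eif4e1b, an egg form of the cap-binding protein, was lost. Of 50 tested proteasome genes, 35 rose, 8 fell and 7 were not called (27 and 17 rose and fell on library totals), with a median of 1.18. The catalytic subunit gene psmb5 had 248.4, 308.3 and 240.6 CPM at 24 hpf and 107.3, 112.2 and 102.0 CPM at the 128-cell stage, and the inhibitor gene psmf1 fell by 2.32 on the log2 scale.

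Transcripts of the mitochondrial genome rose, and those of the nuclear genes of oxidative phosphorylation rose with exceptions. All 13 mitochondrially encoded protein genes were higher, with a median of 2.01 (1.11 on library totals), and together they took 18.7%, 13.2% and 16.1% of the reads at 24 hpf and 7.50%, 7.52% and 5.91% at the 128-cell stage. The cytochrome oxidase subunit gene MT-CO1 was the most abundant, at 74490, 49050 and 63970 CPM at 24 hpf and 18150, 18220 and 12310 CPM at the 128-cell stage. Replicate 1 of the 5 hpf libraries stood apart with 15.8% of its reads from these genes, against 7.03% and 9.64% in replicates 2 and 3. Of 95 tested nuclear genes, 77 rose, 11 fell and 7 were not called (57 and 28 rose and fell on library totals), 32 were kept and the median was 1.76. The ATP synthase gene atp5pb had 389.3, 456.4 and 449.3 CPM at 24 hpf and 66.9, 33.3 and 46.1 CPM at the 128-cell stage. The assembly and copper delivery genes cox11 and cox17 fell, by 0.98 and 0.94 on the log2 scale. For ATP5F1A the change was 0.32 with TMM and -0.58 on library totals, so its direction rests on the scale.

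Skeletal muscle transcripts were nearly all new, with 57 new genes among 69 tested. In the list, 68 genes rose, none fell and 1 was not called (mylk2, log2 fold change 0.32), and the median was 8.17; on library totals 64 rose and 1 fell. Cardiac alpha actin actc1b, which is a main actin of early zebrafish muscle, had 2953, 3222 and 3412 CPM at 24 hpf and 7.75, 0.856 and 4.11 CPM at the 128-cell stage. The fast myosin heavy chain gene myhz1.1 had 3398, 3472 and 2713 CPM at 24 hpf and 5.91, 0.451 and 4.02 CPM at the 128-cell stage, and its light chain gene MYL11 (ENSDARG00000053254) had 2908, 3442 and 2917 CPM at 24 hpf and 7.21, 0.270 and 4.63 CPM at the 128-cell stage. Replicate 2 was lowest among the 128-cell libraries for each of these muscle genes, as it was for krt4. The mean levels at 5 hpf were below the 128-cell means, at 2.03 CPM for actc1b, 0.784 CPM for myhz1.1 and 0.648 CPM for MYL11. Summed over the 57 new muscle genes, the 128-cell libraries had 0.337%, 0.124% and 0.250% of their 24 hpf level, and for all other new genes 1.28%, 0.952% and 0.902%. Whether these reads are low expression in the early embryo or come from other libraries was not tested.

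Heart and blood were smaller in reads. Of 16 tested heart genes, 15 rose, 10 were new and the median was 6.59. The cardiac myosin light chain gene myl7 had 29.2, 34.6 and 43.1 CPM at 24 hpf and 0, 0.0451 and 0.175 CPM at the 128-cell stage. The cardiac transcription factor gene tbx20 was the only member to fall, at 0.476, 0.282 and 0.180 CPM at 24 hpf and 1.90, 0.991 and 1.92 CPM at the 128-cell stage. Of 31 tested globin and red blood cell genes, 28 rose, slc25a37 and tfr1a fell (tfr1a at an adjusted p of 0.0919 by edgeR, and not called without replicate 1 or 2), SLC4A1 (ENSDARG00000024560) was not called, 20 were new and the median was 7.51. The embryonic globin gene hbae3 had 325.6, 242.6 and 407.4 CPM at 24 hpf and 1.08, 0.135 and 0.0874 CPM at the 128-cell stage, and hbbe3 had 354.1, 321.8 and 386.2 CPM at 24 hpf and 0.976, 0 and 0.481 CPM at the 128-cell stage. Replicate 2 was the lowest in both at 24 hpf. The mitochondrial iron carrier gene slc25a37 (mitoferrin), needed for haem in red cells, was a lost transcript, with 1.67, 0.845 and 2.43 CPM at 24 hpf and 55.3, 72.1 and 61.5 CPM at the 128-cell stage.

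All 46 tested hox genes, which give cells their position along the body axis, rose by more than 2-fold, 30 of them were new, and the median was 7.94. The log2 fold changes ran from 1.29 to 10.45. HOXB3 had 184.6, 176.5 and 197.2 CPM at 24 hpf and 0.217, 0.0901 and 0.218 CPM at the 128-cell stage. The levels of hoxb1b were 158.3, 139.2 and 166.9 CPM at 24 hpf and 0.217, 0.225 and 0.306 CPM at the 128-cell stage. These genes varied little between replicates at 24 hpf. Of the reads, the hox genes held 0.00285%, 0.00317% and 0.00262% in the 128-cell libraries, 0.000773%, 0.000598% and 0.000746% in the 5 hpf libraries, and 0.112%, 0.125% and 0.131% in the 24 hpf libraries, so that the lowest share was that at 5 hpf.

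In the nervous system list, 58 of 66 tested genes rose, 4 fell and 4 were not called (tubb4b, mbpa, rtn1b and SOX11, ENSDARG00000095743), 45 were new and the median was 6.82. The tubulin gene tuba1a, which neurons use for their processes, had 763.6, 724.2 and 710.0 CPM at 24 hpf and 2.22, 0.946 and 1.18 CPM at the 128-cell stage. The neuronal RNA-binding protein genes elavl3 and elavl4 had mean levels of 281.3 and 92.7 CPM at 24 hpf and 0.397 and 0.292 CPM at the 128-cell stage. In contrast tubb4b, a tubulin used by most cells, was kept, with 555.8, 614.3 and 544.7 CPM at 24 hpf and 598.6, 587.9 and 545.6 CPM at the 128-cell stage. On library totals tubb4b was called lower, at -0.91 (adjusted p = 7.59e-06 by edgeR). The 4 that fell were both NEUROD6 genes, one INA gene (ENSDARG00000011862) and one CPLX3 gene (ENSDARG00000089486), and NEUROD6 (ENSDARG00000040008) had 0.953, 0.188 and 0.451 CPM at 24 hpf and 6.07, 5.59 and 5.50 CPM at the 128-cell stage. Lens crystallin genes rose in 18 of 21 tested, with 9 new and a median of 6.66, while CRYGN (ENSDARG00000102129), crygmxl1 and crybgx fell. Replicate 2 was the highest 24 hpf library in 17 of the 18 that rose, and cryba1b had 63.1, 100.2 and 49.4 CPM at 24 hpf and 0.163, 0 and 0.0874 CPM at the 128-cell stage. Of 22 tested pigment cell genes, 17 rose, oca2, ltk, tyr and one MITF gene fell, KIT was not called, 7 were new and the median was 4.09. The pteridine pathway gene gch2 had 92.4, 96.7 and 123.6 CPM at 24 hpf and 0.271, 0.0451 and 0.131 CPM at the 128-cell stage, and oca2, a melanosome gene, fell by 2.67 on the log2 scale. Of both genes with the symbol MITF, that of a master regulator of pigment cells, ENSDARG00000003732 rose by 4.64 and ENSDARG00000037833 fell by 4.58. The gene that fell was low at both stages, with means of 0.0601 CPM at 24 hpf and 1.79 CPM at the 128-cell stage.

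Genes of surface and support tissues rose as well. Of 35 tested keratin and epidermis genes, 32 rose, 3 fell, 29 were new and the median was 8.38. The second keratin krt5 had 1798, 2011 and 1829 CPM at 24 hpf and 4.44, 0.946 and 3.80 CPM at the 128-cell stage, and its level at 5 hpf averaged 1765 CPM. The 3 that fell, epcam, spint2 and cdh1, code for an adhesion protein, a protease inhibitor and E-cadherin, and epcam had 116.0, 134.0 and 138.4 CPM at 24 hpf and 1382, 1195 and 1232 CPM at the 128-cell stage. Of 46 tested collagen genes, 41 rose, col4a2, col5a2b and both col19a1 genes fell, col27a1b was not called, 26 were new and the median was 5.24. The type I collagen gene col1a1a had 1042, 1302 and 1377 CPM at 24 hpf and 4.44, 0.991 and 2.49 CPM at the 128-cell stage, and COL2A1 (ENSDARG00000069093), of notochord and cartilage, had 856.0, 1038 and 959.4 CPM at 24 hpf and 2.71, 0.541 and 1.66 CPM at the 128-cell stage. All 10 tested hatching gland genes rose, with a median of 5.14, although on library totals xbp1 and tmem9 fell. The hatching enzyme gene he1.1 had 77.3, 111.9 and 105.2 CPM at 24 hpf and 0, 0.0451 and 0.175 CPM at the 128-cell stage. Of 19 tested genes with an apolipoprotein symbol, 16 rose, apom, apool and 1 APOD gene fell, 14 were new and the median was 7.91. Members were taken by symbol alone, so the list also holds both APOO genes and apool. The yolk syncytial layer is known to make apolipoproteins from early on, and apoeb had 417.8, 425.9 and 542.1 CPM at 24 hpf, 1.44 to 3.04 CPM at the 128-cell stage and a mean of 3419 CPM at 5 hpf. The APOD gene (ENSDARG00000060350) was lost, with a log2 fold change of -6.74.

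**Figure D4:**
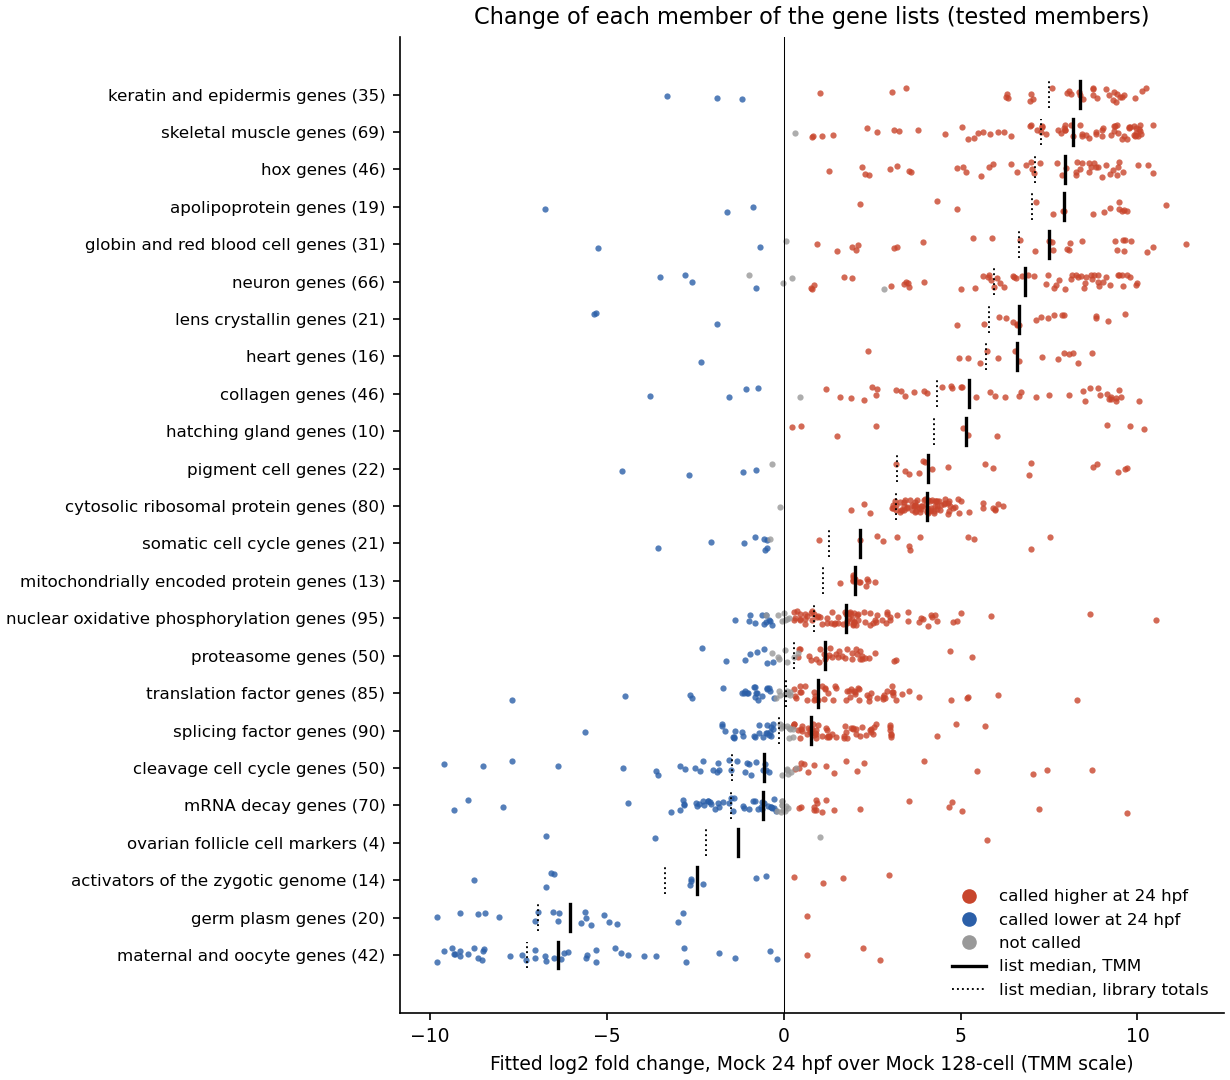
Fitted log2 fold changes (24 hpf over 128-cell stage, TMM scale) of the tested members of each gene list, whose number stands in brackets, with solid bars at list medians and dotted bars at medians on library totals. The medians run from -6.39 for maternal and oocyte genes to 8.38 for keratin and epidermis genes, and that of splicing factor genes is 0.78 with TMM and -0.12 on library totals.

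The 8 most abundant kept transcripts code for nuclear RNA-binding and RNA-processing proteins and 1 chromatin remodeller. Of 3768 kept genes, 1077 were called higher, 1634 lower and 1057 not called, and the class limits the change to 2-fold by its rule. The nucleolar protein gene ncl (nucleolin) had 553.2, 633.1 and 666.9 CPM at 24 hpf and 1013, 1149 and 1000 CPM at the 128-cell stage. HNRNPAB (ENSDARG00000099865), a heterogeneous nuclear ribonucleoprotein, had 807.7, 927.6 and 839.4 CPM at 24 hpf and 1343, 1150 and 1408 CPM at the 128-cell stage. Both fell, by 0.77 and 0.60 on the log2 scale, and both were much higher at 5 hpf, at 1881 and 3654 CPM on average. The splicing-related acin1a had 1124, 945.1 and 869.1 CPM at 24 hpf and 583.3, 489.5 and 425.6 CPM at the 128-cell stage. Its log2 fold change was 0.98 with TMM and 0.08 on library totals, where it was not called. The RNA helicase gene ddx5 had 891.9, 826.6 and 787.7 CPM at 24 hpf and 554.8, 448.8 and 445.9 CPM at the 128-cell stage, but its log2 fold change of 0.80 became -0.10 on library totals. The same held for SMARCA4 (ENSDARG00000077226), a chromatin remodelling ATPase (0.81 and -0.08), for hnrnpa0l (0.50 and -0.40) and for syncrip (0.29 and -0.61), while HNRNPA1L2 was at 0.90 with TMM and 0.00 without. For these 5 genes and acin1a the direction or the call rested on the scale, whereas ncl and HNRNPAB were lower on library totals too, at -1.67 and -1.50. Those changes of ncl and HNRNPAB on library totals exceeded the 2-fold limit of the kept class. Of 90 tested splicing factor genes, 57 rose, 24 fell, 9 were not called and 43 were kept, with a median of 0.78, and on library totals 35 rose and 42 fell with a median of -0.12. These genes held 1.55%, 1.66% and 1.53% of the reads at 24 hpf and 1.54%, 1.51% and 1.62% at the 128-cell stage, so that their share of the reads overlapped between the stages. One LSM2 gene (ENSDARG00000103066) stood outside this pattern and was lost, with 1.31, 1.22 and 0.811 CPM at 24 hpf and 61.6, 50.8 and 51.6 CPM at the 128-cell stage.

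The Mock 5 hpf libraries, which the classes did not use, lie between both stages and are given as a description. Lost genes were at a median of 34.4% of their 128-cell level at 5 hpf, and 151 of 459 (32.9%) were still at 50% or more. Only 7 had dropped under 5%, whereas 46 were above their 128-cell level. New genes were at a median of 3.37% of their 24 hpf level: 1088 (55.9%) were under 5%, 371 (19.0%) were at 50% or more, and 259 were above their 24 hpf level. Of the kept genes, 2398 (63.6%) were within 2-fold of the 128-cell level at 5 hpf as well. All these levels are on the TMM scale, with factors of 0.760 to 0.898 at 5 hpf. Relative to the 128-cell stage, with factors of 1.34 to 1.38, the 5 hpf levels would be lower on library totals. Among maternal genes the course differed. At 5 hpf slbp2, the egg form of the protein that binds the histone stem-loop, had 7.65 CPM on average and btg4 had 12.7 CPM, both a small fraction of their level before, while nanog had 508.7 CPM and ddx4 646.8 CPM. Among new genes krt5 was at 1765 CPM and sox19a at 665.3 CPM at 5 hpf, whereas all hox genes named above were under 1 CPM. Kept genes could peak in between, as hnrnpa0l did with 696.8 to 812.0 CPM at the 128-cell stage, a mean of 3704 CPM at 5 hpf and 1007 to 1114 CPM at 24 hpf.

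**Figure D5:**
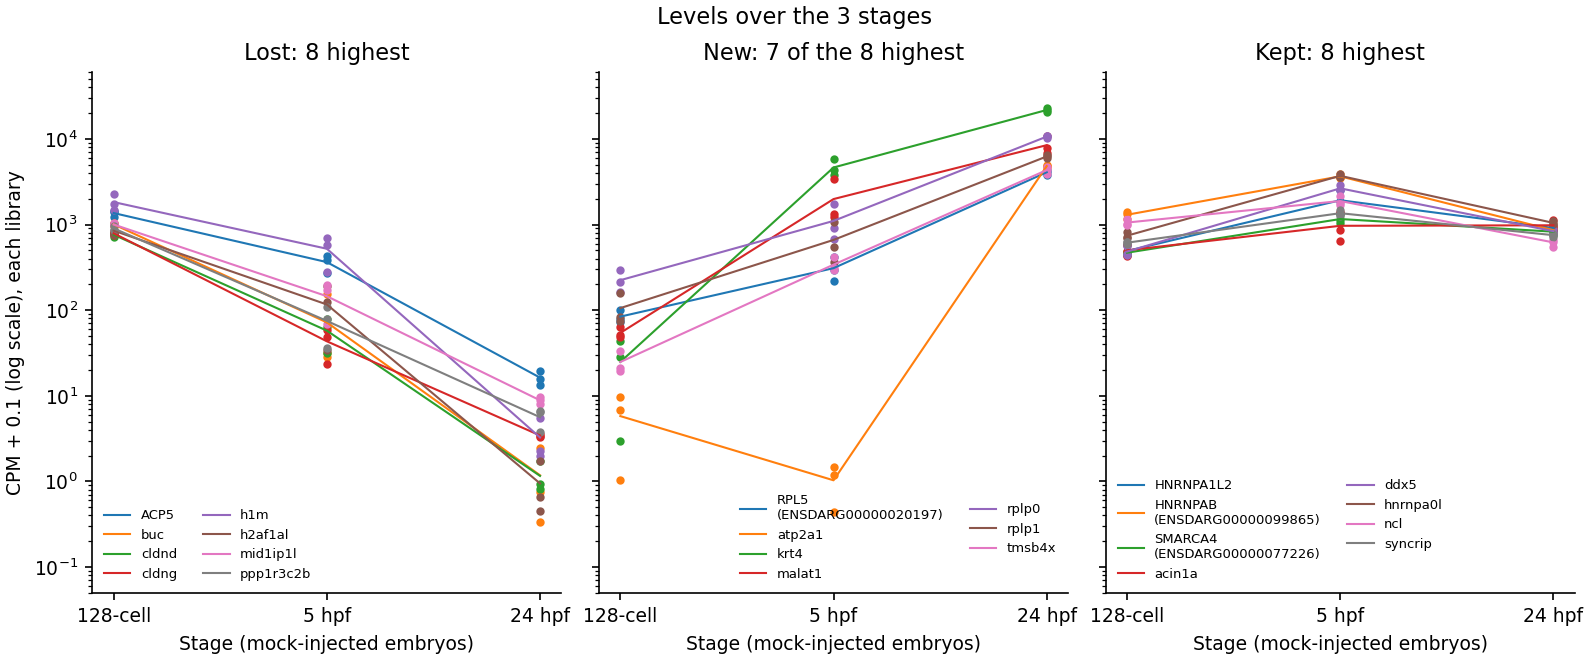
Levels of the 8 most abundant lost and kept genes and of 7 of the 8 most abundant new genes with a nuclear symbol over the 3 stages, in order of age, as CPM + 0.1 on a log scale (points are mock libraries, lines join the means of 3). The lost genes are already lower at 5 hpf, the new genes shown other than atp2a1 are already higher there, and the means of all 8 kept genes are higher at 5 hpf than at the 128-cell stage.

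Among the markers of the stages, all 7 maternal markers (zar1, zar1l, btg4, buc, pabpc1l, h1m and npm2a) fell at 24 hpf. Of the 24 hpf markers given above, actc1b and myhz1.1 of muscle, hbae3 and hbbe3 of blood and myl7 of heart rose. So did elavl3 and elavl4 of neurons, he1.1 of the hatching gland, and krt4 and krt5 of epidermis. Other members of the blood, heart, neuron, lens and epidermis lists fell, as described above. Ovarian follicle cells, which surround the oocyte and could be carried along with eggs, were looked for with 15 markers. Of these 4 passed the filter on low counts, of which 2 fell, INHBA (ENSDARG00000012671) rose and FOXL2 (ENSDARG00000068417) was not called. The steroid synthesis genes CYP11A1 (ENSDARG00000002347) and cyp17a1 fell, and CYP11A1 had 0.238, 1.03 and 1.62 CPM at 24 hpf and 66.1, 129.0 and 120.0 CPM at the 128-cell stage. For cyp17a1 the mean was 7.24 CPM at 24 hpf and 89.9 CPM at the 128-cell stage. The other 13 markers averaged at most 0.515 CPM at the 128-cell stage, among them gsdf, amh and inha at 0.0181, 0.0331 and 0.0146 CPM, and CYP19A1 had no read. Summed over all 15 markers the level was 10.2 to 16.1 CPM at 24 hpf and 151.5 to 222.9 CPM at the 128-cell stage, and the part of follicle cells in it was not tested.

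The stage change was examined again in the 6 Csm libraries of the same stages, which came from the same injection experiments but shared no library with the comparison. By the same rules 395 genes were lost, 1842 new and 3771 kept there. Lost genes in common numbered 362, which is 78.9% of those in mock and 91.6% of those in Csm embryos, new genes in common 1748 (89.7% and 94.9%), and kept genes in common 3462 (91.9% and 91.8%). For 90.1% of the tested genes the fold change in Csm embryos was within 2-fold of that in mock embryos. The difference between the 2 changes was itself tested over 19444 genes. None of these was called (0.0%) at an adjusted p under 0.1 in edgeR's test of the interaction. An unadjusted p under 0.05 in this test was reached by 675 genes, fewer than that threshold passes on average where nothing differs. Without replicate 2 of all groups the same test called 43 genes.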

How the data were processed

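Poly(A)-selected RNA of pooled whole embryos was sequenced from CORALL libraries. What the authors deposited for each library are counts of reads by gene, as whole numbers without normalization. The submitters' processing notes name bcl2fastq 2.16.10, UMI-tools 1.0.0, cutadapt 2.4, STAR 2.7.2b, HTSeq 0.11.2, R 3.6.1, DESeq2 1.24.0 and the build GRCz11, with no role or order, and the use of strand in counting is not given in the sources used here. The deposited normalized tables were not used. Each counts file ends in 5 special rows, which were left out. In the 6 libraries, reads without a feature came to 11.1% to 14.1% of all listed counts, ambiguous reads to 0.793% to 1.66% and reads with several alignments to 5.35% to 14.8%. Symbols were paired with 29202 of 32521 identifiers.

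Counts were fitted with edgeR 4.0.16 (R 4.3.3) by its quasi-likelihood test with TMM, filterByExpr and a block for the replicate number, and glmTreat for the test against a 2-fold change, with Benjamini-Hochberg adjustment over all 18265 genes and a threshold of 0.1, as in the study. The labels describe 3 independent injection experiments, and a replicate number was assumed to stand for the same experiment at both stages. Same-numbered libraries of both stages deviated together only weakly, at r between 0.072 and 0.090 across genes, against r between -0.0823 and -0.000312 for other numbers. Deviations were taken from means of 3 libraries, so positive values for same numbers push those for other numbers below them by arithmetic. Pairs of replicates differed by more than counting noise, with chi-square per degree of freedom between 9.11 and 23.8. On simulated counts for 18203 genes in this comparison, the fit recovered 77.7% of changes of 1 and 99% of changes of 2 on the log2 scale, and it called 13 unchanged genes. The simulation changed only 200 genes, whereas most genes were called in the real comparison, so these rates need not hold there. The TMM factors were 0.714 to 0.758 at 24 hpf and 1.34 to 1.38 at the 128-cell stage.

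The classes, the 24 gene lists, the pairs and the tests were chosen with earlier results of these data known. Genes were named by rule: the 8 most abundant nuclear genes with a symbol in each class; of each list, up to 4 tested members with the highest mean level and up to 2 called members, by smallest p, that went against most; all genes of the pairs; and the stage markers. Certain items that this rule names are not reported here. Members behind small counts, and some others with their class, were named after their values were seen. APOBEC2 genes, which share a prefix with the apolipoproteins, were taken out of that list after its members were reviewed. Of the listed symbols, 39 matched no identifier. Alternatives were no block, DESeq2 1.42.0, other scaling, filters, limits and thresholds, all 18 libraries, and leaving out each replicate number.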

Additional observations from a re-analysis of the deposited data

How the results depend on the processing

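Under every alternative run, the counts of genes higher or lower at 24 hpf stayed within 1.5 times the counts reported. They ranged from 6380 to 10864 higher and from 7321 to 10324 lower, and for changes beyond 2-fold from 5272 to 8841 higher and from 4182 to 8318 lower. Without the replicate block, 8246 genes were higher and 8100 lower, and 3770 were kept, so the pairing of replicates moved no count by over 1.5 times. Leaving out replicate 1, 2 or 3 gave 514 to 538 lost, 2068 to 2136 new and 3786 to 3873 kept genes, each count over that with all libraries. Every library has to meet the limits of these classes, so leaving libraries out loosens the rules and such rises are largely built in. Lost genes numbered 817 on library totals, 822 at a ratio of at least 10 times and 224 at 50 times, and kept genes 2272 within 1.5-fold. On library totals there were 1457 new and 2641 kept genes. Over all alternatives new genes ranged from 1405 to 2449 and kept genes from 2272 to 4305. The test of a different stage change in Csm and mock embryos called between 0 and 43 genes when a replicate was left out, 43 without replicate 2.

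Directions depended on the scale. On library totals the log2 fold change turned to -0.58 for ATP5F1A, -0.08 for SMARCA4 (ENSDARG00000077226), -0.23 for celf1, -0.10 for ddx5, -0.40 for hnrnpa0l, -0.48 for khsrp, -0.01 for kpna2, -0.55 for npm1a, -0.48 for rrm1, -0.61 for syncrip and -0.67 for xbp1, and the median of the splicing factor genes to -0.12. DESeq2's size factors moved the log2 fold changes by 0.13 the other way, and of the named genes they turned RRM2 (ENSDARG00000020711) to 0.07 and tubb4b to 0.12, both not called in either fit. On library totals RRM2 (ENSDARG00000020711) and tubb4b were called lower, at -0.96 and -0.91, as were lmnb1 at -0.77 and SOX11 (ENSDARG00000095743) at -0.68. Leaving out 1 replicate ended the calls of ATP5F1A, igf2bp3, npm1a, psmd6, syncrip, tfr1a and xbp1, with adjusted p up to 0.482 by edgeR (tfr1a, without replicate 1). By construction a gene that changed by under 0.90 can turn when totals replace TMM, and which scale is nearer to the transcripts per embryo was not measured. Depth limits the lost and new classes at the low end, where a level near 0.1 CPM rests on about 1 read in a 24 hpf library and about 2 reads in a 128-cell library.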
